A study of Mus musculus with 8 samples.

Results

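The complement system was examined through 8 genes that make its first components and a regulator of them, C1qa, C1qb, C1qc, C1ra, C1s1, Serping1, C4b and C3. They were taken by gene symbol from a table of 23045 genes, and all 8 had a row there and passed the filter on low values. Heart RNA from mice was compared in 4 WT libraries (Mettl3lox/lox) and 4 Mettl3 KO libraries (Mettl3lox/lox:alphaMHC-MerCreMerpos), called KO from here on. Both groups carried the loxP-flanked Mettl3 gene and were given tamoxifen at 100 µg per 1 g of body weight on 7 consecutive days, at an age of 10 to 16 weeks. The KO mice alone carried the transgene, a tamoxifen-activated Cre recombinase driven by the αMHC promoter in cardiomyocytes, so that the presence of Cre and the loss of Mettl3 cannot be told apart. Other heart cells keep Mettl3 in this model, and the sex of the animals is not given in the sources used here.

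Complement is a cascade of proteins in blood and tissue fluid that marks targets for removal and calls in immune cells. In the classical pathway, C1q binds a target and the proteases C1r and C1s attached to it cleave C4 and C2, which leads to cleavage of C3 and to assembly of the membrane attack complex. The inhibitor encoded by Serping1 blocks C1r and C1s. Liver is the main source of most circulating components, whereas macrophages make C1q and stromal cells such as fibroblasts can make C1r, C1s, C3 and C4.

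The libraries were stranded total RNA reads of heart tissue (which parts of the heart were taken is not given in the sources used here), given as normalized read counts. Recovered reads came to 2631286 to 3062489 per library, and 3 reads, the limit that a count of 0 allows, stood for at most 3.33 normalized read counts. This floor and the precision of low counts cover counting error only. Mettl3 itself had 105, 133, 118 and 107 normalized read counts in the WT libraries and 74, 68, 69 and 78 in the KO libraries (log2 fold change -0.67, limma adjusted p = 0.000184, SE 0.10). Of 6 cardiomyocyte markers none passed the test with limma (1 had an unadjusted p under 0.05, and 2 with limma voom), and their summed level was 12203 to 13247 in WT and 12305 to 13780 in KO libraries. All 5 atrial markers passed as higher in KO hearts, with sums of 192 to 432 in WT and 598 to 1392 in KO libraries, but single libraries stood apart. KO replicate 1 lay at the WT level for 4 of them (Myl7 23, Myl4 113, Sln 10 and Bmp10 0), and 452 of its sum came from Nppa. WT replicate 3 lay far below the other WT libraries for Myl7 (0 against 21 to 26) and Myl4 (17 against 110 to 114). Limma voom called 4 of these 5 and limma without a trend none, where 4 had an unadjusted p under 0.05. The part of atrial tissue in the complement results was not tested. Of the 8 complement genes, 4 passed without WT replicate 3 (C3, C4b, Serping1 and, in place of C1ra, C1s1) and 3 without KO replicate 1 (C3, C4b and Serping1). Neither fit removes the atrial difference. Without KO replicate 1 all remaining KO libraries lie above the WT libraries for Myl7, Myl4, Sln and Bmp10. These fits therefore cannot decide the part of atrial tissue.

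Of the 8 complement genes, 4 rose in KO hearts at a limma adjusted p under 0.05 (C3, C4b, C1ra and Serping1), against 7.91% of all 20313 genes tested in either direction and 4.72% in the upward direction. C1s1 and the C1q chains did not pass. WT and KO libraries were fully apart for C4b, C1ra, C1s1 and Serping1, which were higher in every KO library than in any WT library, and 6.46% of all tested genes did so. The median log2 fold change was 0.28 over the 8 genes and -0.01 over all tested genes. The count of 4 rests on the test's settings. It was 2 without WT replicate 4, 2 without KO replicate 4, and 0 when limma was run without its mean-variance trend (5 of the 8 then had an unadjusted p under 0.05, as in the main test and in limma voom, which called 4).

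**Figure D1:**
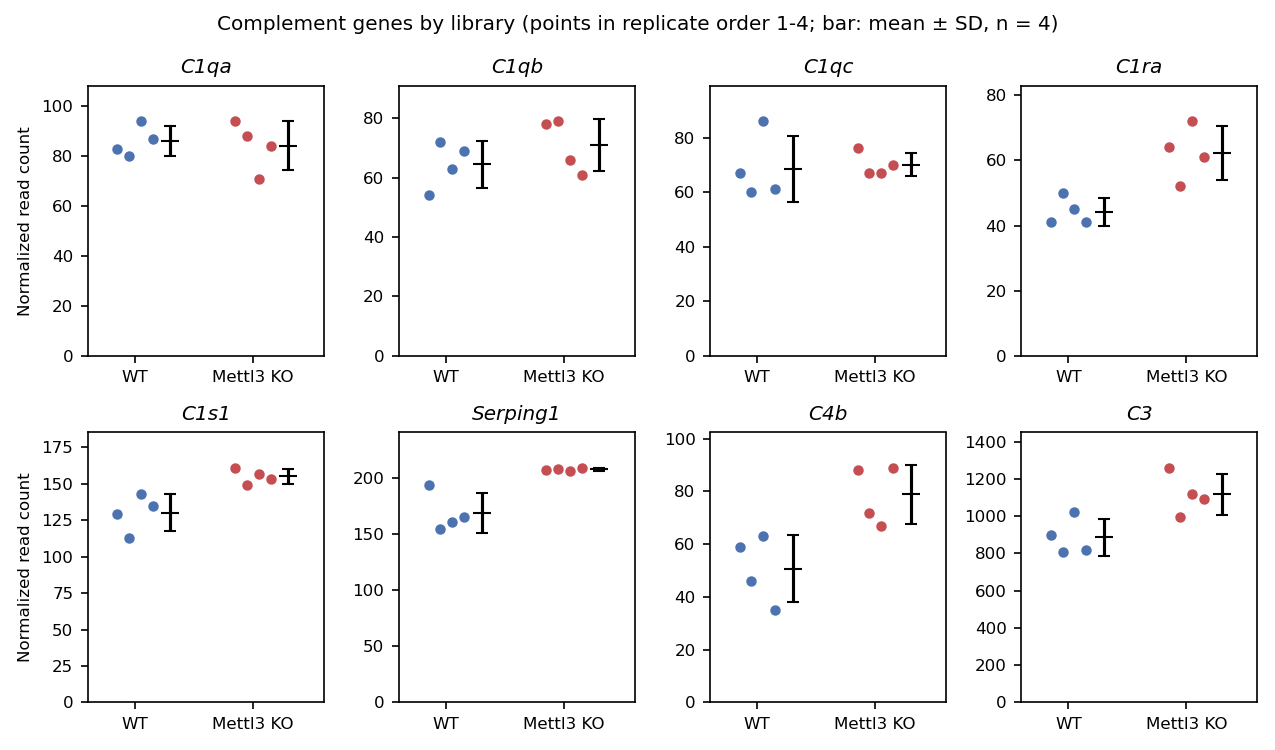
Normalized read counts (vertical axes from 0) of the 8 complement genes in each of 4 WT (blue) and 4 KO (red) libraries, with mean ± SD. C1ra, C1s1, Serping1 and C4b lie higher in every KO library than in any WT library, C3 overlaps at 1020 in WT and 997 in KO, and the C1q chains overlap widely.

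The sequence before the start site is shown for C1ra, C1s1 and C3, the 3 genes matched to RefSeq promoters among the 5 whose unadjusted limma p was under 0.05. C1qb is shown with them as a chain of C1q. Each run is the 250 bases before the annotated start, 5′ to 3′, in RefSeq's build GRCm38.p6, an earlier build than the mm39 of the expression table. Capitals mark matches to TTNNGNAAT, a core of the binding site of C/EBP factors, which act in acute phase responses, or in C1qb to GAGGAA, the core of the site of PU.1, a factor of macrophages.
C1ra, chr6:124512371-124512620, plus strand: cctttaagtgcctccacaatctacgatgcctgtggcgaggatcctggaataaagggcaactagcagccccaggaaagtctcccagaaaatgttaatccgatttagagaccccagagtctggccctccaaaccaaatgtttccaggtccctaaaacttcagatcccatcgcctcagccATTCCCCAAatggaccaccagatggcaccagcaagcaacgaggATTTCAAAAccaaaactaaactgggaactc
C1s1, chr6:124542360-124542609, minus strand: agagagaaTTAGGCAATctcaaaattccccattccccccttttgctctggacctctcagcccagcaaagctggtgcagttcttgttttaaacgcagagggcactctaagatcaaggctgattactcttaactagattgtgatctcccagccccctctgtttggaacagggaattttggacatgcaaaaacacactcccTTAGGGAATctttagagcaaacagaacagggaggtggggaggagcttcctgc
C3, chr17:57228137-57228386, minus strand: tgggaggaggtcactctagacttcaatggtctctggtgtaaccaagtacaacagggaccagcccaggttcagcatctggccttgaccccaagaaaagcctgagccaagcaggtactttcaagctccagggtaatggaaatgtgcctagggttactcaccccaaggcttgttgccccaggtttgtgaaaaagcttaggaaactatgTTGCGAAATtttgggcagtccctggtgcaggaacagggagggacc
C1qb, chr4:136886201-136886450, minus strand: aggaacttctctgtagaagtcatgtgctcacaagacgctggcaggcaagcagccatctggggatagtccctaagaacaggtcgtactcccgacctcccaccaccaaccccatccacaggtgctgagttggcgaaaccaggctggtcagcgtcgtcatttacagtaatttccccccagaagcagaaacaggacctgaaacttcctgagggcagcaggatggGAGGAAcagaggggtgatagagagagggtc

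Of the 8 genes, 5 matched the promoter table (C1qb, C1qc, C1ra, C1s1 and C3), with 6 windows because C1s1 has a pair of starts. TTNNGNAAT was found on either strand in the windows of C1ra, C1s1 (both starts) and C3, and in 10.2% of 32851 windows of the same length. The C3 match TTGCGAAAT lies 45 to 37 bases before the start. C1ra holds 2 matches, C1s1 holds 2 in the window shown, and the windows of C1qb and C1qc hold none. GAGGAA was found in C1qb and C1qc and in 23.3% of all windows, and in none of the windows of C1ra, C1s1 and C3. TTCNNNGAA (the interferon-γ activated site), the core of the interferon-stimulated response element and TATAAA were searched as well and matched no window of these genes, against 7.02%, 2.98% and 12.4% of all windows. These motifs were chosen with the expression values known, and a match describes letters and no bound factor.

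C1q is built from 3 chains, which are encoded by C1qa, C1qb and C1qc within 18675 bases of chromosome 4 (mm39), all on the minus strand. C1qa (ENSMUSG00000036887, chromosome 4, 136623228 to 136626114) had 83, 80, 94 and 87 normalized read counts in the WT libraries and 94, 88, 71 and 84 in the KO libraries. C1qb (ENSMUSG00000036905, 136607440 to 136613498) had 54, 72, 63 and 69 in WT and 78, 79, 66 and 61 in KO libraries. C1qc (ENSMUSG00000036896, 136617115 to 136620376) had 67, 60, 86 and 61 in WT and 76, 67, 67 and 70 in KO libraries. For each chain the genotypes overlapped, and neither was high or low throughout.

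The log2 fold change was -0.03 for C1qa (limma adjusted p = 0.917, SE 0.11, 95% interval -0.26 to 0.19). It was 0.14 for C1qb (limma adjusted p = 0.617, SE 0.13, interval -0.12 to 0.40) and 0.04 for C1qc (limma adjusted p = 0.905, SE 0.12, interval -0.21 to 0.30). None of the 3 chains passed, none had an unadjusted p under 0.05, and limma voom and limma without a trend gave the same counts. As a ratio of KO to WT, the intervals run from 0.836 to 1.14 for C1qa, from 0.917 to 1.32 for C1qb and from 0.863 to 1.23 for C1qc, so that changes within them were not detectable at 56 to 98 reads per library. The 3 chains summed to 219 ± 16.9 normalized read counts in WT hearts (n = 4, SD) and 225.3 ± 19.6 in KO hearts (n = 4, SD).

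Macrophages, a known source of C1q, were followed through 10 markers. Of these, 1 passed the limma test, Cd163, a scavenger receptor of resident macrophages, which fell by 0.35 on the log2 scale (limma adjusted p = 0.0168, SE 0.09). Cd163 had 255, 189, 220 and 178 in WT and 161, 168, 162 and 161 in KO libraries. An unadjusted p under 0.05 was reached by 2 of the 10 with limma. The other was Lyz2, which went the opposite way at 0.17 and did not pass (limma adjusted p = 0.189). The median over the list was -0.03, and its sum was 1668 to 2101 in WT and 1679 to 1973 in KO libraries, with no marker at 0 throughout. C1q chains relative to this sum had a ratio of 0.117 ± 0.014 in WT hearts (n = 4, SD) and 0.127 ± 0.005 in KO hearts (n = 4, SD), with overlapping libraries. In bulk tissue, fewer cells of a type and less RNA per cell cannot be told apart.

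C1r and C1s are the proteases that C1q carries. C1ra (ENSMUSG00000055172, mm39 chromosome 6, 124489364 to 124500402, plus strand) had 41, 50, 45 and 41 normalized read counts in the WT libraries and 64, 52, 72 and 61 in the KO libraries. Every KO library lay above every WT library, although the nearest pair was 50 and 52. C1ra rose from 44.3 ± 4.27 to 62.3 ± 8.26 (n = 4, SD), a log2 fold change of 0.48 (limma adjusted p = 0.0310, SE 0.14). This call was held by 2 of the 8 fits that left out a library, those without WT replicate 2 (0.54) or KO replicate 2 (0.56), and was not reached without WT replicate 1, 3 or 4 or without KO replicate 1, 3 or 4 (limma adjusted p = 0.0503 to 0.126).

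C1s1 (ENSMUSG00000038521, mm39 chromosome 6, 124507304 to 124519318, minus strand) lies tail to tail with C1ra, with 6901 bases between their ends. It had 129, 113, 143 and 135 normalized read counts in the WT libraries and 161, 149, 157 and 153 in the KO libraries. The groups did not overlap, yet the log2 fold change of 0.26 (SE 0.08, interval 0.08 to 0.43) did not pass the threshold over all genes (limma adjusted p = 0.0663, unadjusted p = 0.00610). It passed without WT replicate 3 (0.30, limma adjusted p = 0.0410), the library with the highest WT value, and with no other library left out. The number of C1s1 reads for each C1ra read was 2.97 ± 0.48 in WT hearts (n = 4, SD) and 2.52 ± 0.28 in KO hearts (n = 4, SD), with overlapping libraries.

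Serping1 encodes the C1 inhibitor, the serpin that disables C1r and C1s. Serping1 (ENSMUSG00000023224, mm39 chromosome 2, 84595731 to 84605788, minus strand) had 194, 154, 161 and 165 normalized read counts in the WT libraries and 207, 208, 206 and 209 in the KO libraries. The KO values were very close to each other and lay above all WT values. Before normalization these 4 libraries held 187, 210, 197 and 225 reads, so the closeness arose on the normalized scale. Serping1 rose from 168.5 ± 17.6 to 207.5 ± 1.29 (n = 4, SD), a log2 fold change of 0.30 (limma adjusted p = 0.0146, SE 0.08). Without WT replicate 2, the lowest WT library, it was 0.26 and did not pass (limma adjusted p = 0.0632).

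C4 and C3 are the proteins that complement proteases cleave and that attach to target surfaces. C4b (ENSMUSG00000073418, mm39 chromosome 17, 34947354 to 34962856, minus strand) had 59, 46, 63 and 35 normalized read counts in the WT libraries and 88, 72, 67 and 89 in the KO libraries. The WT libraries were spread widely and the groups were parted by 63 and 67. C4b rose from 50.8 ± 12.8 to 79.0 ± 11.2 (n = 4, SD), which was the largest log2 fold change of the 8 genes at 0.65 (limma adjusted p = 0.0113, SE 0.16). The call was lost when WT replicate 4 was left out (0.49, limma adjusted p = 0.0512) and when KO replicate 4 was (0.59, limma adjusted p = 0.0612).

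C3 (ENSMUSG00000024164, mm39 chromosome 17, 57510970 to 57535136, minus strand) had 900, 806, 1020 and 818 normalized read counts in the WT libraries and 1260, 997, 1117 and 1093 in the KO libraries. WT replicate 3 lay above KO replicate 2, and the other libraries kept to their sides. C3 rose from 886 ± 98.6 to 1116.8 ± 108.7 (n = 4, SD), a log2 fold change of 0.34 (limma adjusted p = 0.00233, SE 0.07). It was the only one of the 8 genes whose call held in each of the 8 fits that left out a library, at 0.28 to 0.40.

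Because the C1q chains did not pass while 4 other genes did, the difference itself was tested in 15 pairs, each a C1q chain against C1ra, C1s1, Serping1, C4b or C3. C3 gained 0.37 on the log2 scale over C1qa, 0.29 over C1qc and 0.20 over C1qb, and C4b gained 0.69 over C1qa. In 5 of the 15 pairs the two-sided exact permutation test reached 0.0286, the smallest p that 4 against 4 libraries can give. After Benjamini-Hochberg adjustment over the 15 pairs the lowest p of the exact test was 0.0857, so a different response of the C1q chains was not shown. The adjusted p could fall under 0.05 only if most of the 15 pairs reached 0.0286. The pairs also share genes, so this test cannot decide whether the C1q chains responded differently. The pairs were chosen after the values were seen.

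Levels were compared between genes as normalized read counts per kb of exon, with exon lengths of an earlier annotation (GENCODE M21, GRCm38) matched by gene identifier. In WT hearts C3 stood highest at 172 ± 19.2 per kb (n = 4, SD), followed by C1qa at 82.7 ± 5.82, Serping1 at 72.5 ± 7.57 and C1qb at 59.3 ± 7.30. C1s1 at 41.5 ± 4.06 and C1qc at 35.5 ± 6.25 came next, and C1ra at 14.8 ± 1.43 and C4b at 8.91 ± 2.24 were lowest. C1qa and Serping1 overlapped in WT libraries, as did C1s1 and C1qc, and the other neighbours in this order were apart. In KO hearts Serping1 at 89.2 ± 0.56 per kb stood above C1qa at 81.0 ± 9.37, with overlap, and C1qa overlapped with C1qb. C3 made up 59.0% ± 1.30 of the summed normalized read counts of the 8 genes in WT hearts (n = 4, SD) and 60.4% ± 1.69 in KO hearts (n = 4, SD).

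Near copies affect some of these levels, since the deposited counts leave out reads that map to several places. Of the 72-base windows of the longest transcript in GENCODE M21, 40.9% for C1ra also lie in C1rb, 24.7% for C4b also lie in C4a and 15.6% for C1s1 also lie in C1s2. Reads from such stretches could not be counted, so the levels of C1ra, C4b and C1s1 are uncertain. C4a, the sex-limited copy of C4, had at most 4 normalized read counts in any library. C1rb and C1s2 had no row and were not analysed.

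**Figure D2:**
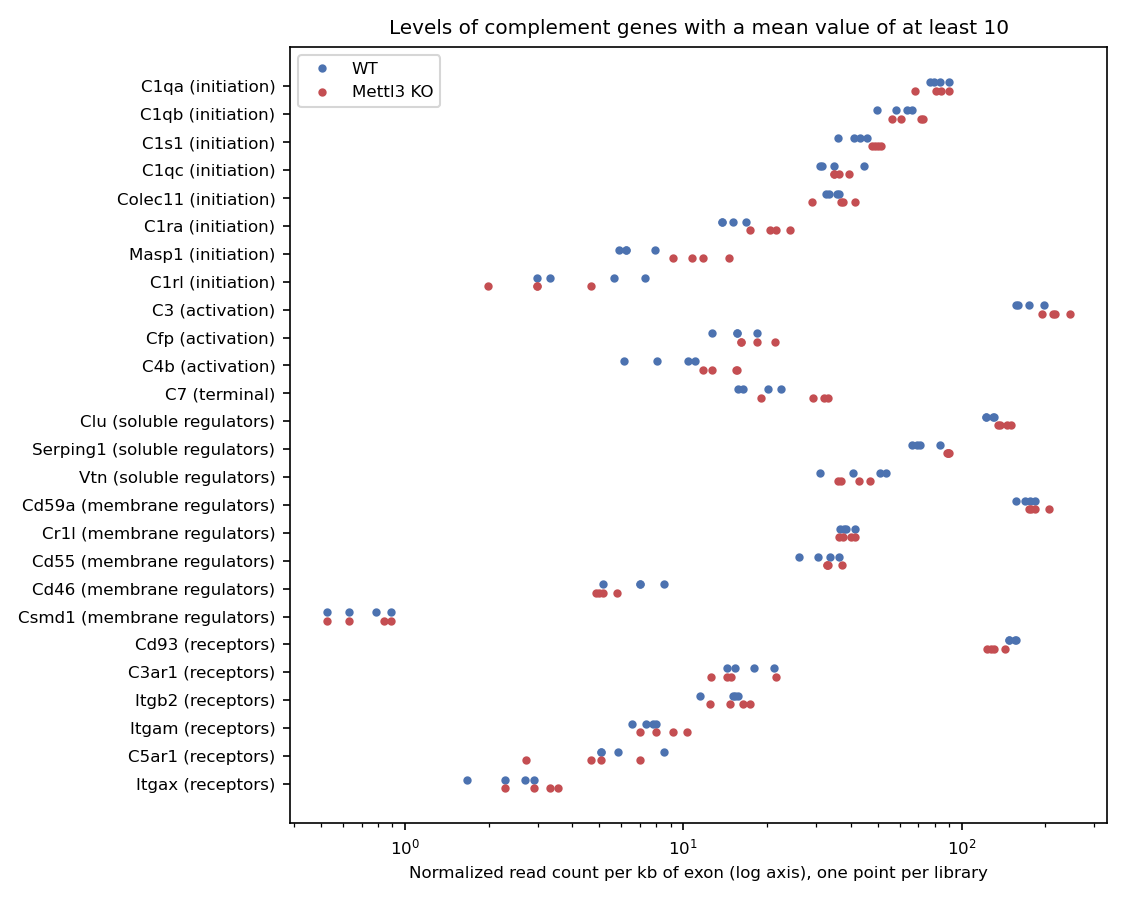
Normalized read counts per kb of exon (horizontal log axis) of complement genes whose mean value reached 10 or more, with a point for each of 4 WT (blue) and 4 KO (red) libraries. C3, Cd59a, Cd93 and Clu stand highest, and C4b, at 8.91 per kb in WT hearts, lies well below C3, at 172.

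The rest of the pathway was read from a list of 49 further genes, of which 35 had a row in the table and 31 were tested. Of these 31, 4 rose (Masp1, C7 and Clu among them), 1 fell (Cd93) and 26 did not pass, which is 16.1% called against 7.91% of all tested genes. Their median log2 fold change was 0.08, and that of all tested genes was -0.01.

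Masp1 encodes serine proteases of the lectin pathway and of factor D maturation. It had 61, 78, 61 and 58 normalized read counts in WT and 90, 106, 116 and 143 in KO libraries, without overlap, and rose by 0.80 on the log2 scale (limma adjusted p = 0.000316, SE 0.13). Colec11, a collectin that starts the lectin pathway, did not pass, at 0.06 (limma adjusted p = 0.870, SE 0.13). Mbl1, Mbl2, Fcnb and Colec10 had no row and were not analysed, and Fcna and Masp2 had at most 12 and 4 normalized read counts.

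C7, a component of the membrane attack complex, had 44, 54, 60 and 42 in WT and 51, 89, 78 and 86 in KO libraries. KO replicate 1 lay among the WT values. The log2 fold change was 0.58 (limma adjusted p = 0.0274, SE 0.16), and it was lost without WT replicate 1 or 4 or without KO replicate 2, 3 or 4 (limma adjusted p = 0.0904 to 0.127). The other terminal genes were at or near the floor, with at most 7 normalized read counts for C8g and at most 2 for C6 and Hc, the mouse gene of C5. Among the activation genes C2 had at most 4, Cfd at most 4 and Cfb at most 2, whereas Cfp, which encodes properdin, had 22 to 32 in WT and 28 to 37 in KO libraries and did not pass (limma adjusted p = 0.589).

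Clu and Vtn encode clusterin and vitronectin, which bind forming attack complexes. Clu had 421, 451, 444 and 419 in WT and 517, 465, 500 and 474 in KO libraries, a log2 fold change of 0.17 (limma adjusted p = 0.0483, SE 0.05). That call lay at the threshold, and it was lost in each of the 8 fits without a library and held in 3 of 18 alternatives. Vtn, at -0.09 (interval -0.39 to 0.20), did not pass (limma adjusted p = 0.791).

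Regulators bound to cell membranes shield host cells from complement. None of the 7 tested passed with limma, limma voom or limma without a trend, and each gave 1 of them an unadjusted p under 0.05 (Cd46 in the main test). Cr1l, the mouse regulator known as Crry, had 379 to 428 in WT and 374 to 428 in KO libraries, a log2 fold change of 0.01 (interval -0.11 to 0.13). Cd59a, which blocks the attack complex, was at 0.11 (interval -0.03 to 0.25). Cd55, which speeds the decay of convertases, was at 0.12 (interval -0.07 to 0.31), and Cd46, a cofactor for C3b cleavage, was at -0.38 (interval -0.70 to -0.06, limma adjusted p = 0.148). Apart from Cd46, the named intervals span 0.

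Of 9 receptors and receptor chains tested, 1 passed. Cd93, a membrane protein of endothelial and myeloid cells that was once described as a receptor of C1q, had 990, 1043, 992 and 1046 in WT and 956, 873, 851 and 822 in KO libraries. The groups did not overlap, and Cd93 fell by 0.22 on the log2 scale (limma adjusted p = 0.00449, SE 0.05). Of 8 endothelial markers 4 fell and none rose, with sums of 4005 to 4231 in WT and 3457 to 3782 in KO libraries, and their part in the fall of Cd93 was not tested. C3ar1, the receptor of C3a, was at -0.13 (limma adjusted p = 0.711, SE 0.15), and Itgb2, the shared chain of complement receptors 3 and 4, was at 0.08 (limma adjusted p = 0.847, SE 0.15).

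**Figure D3:**
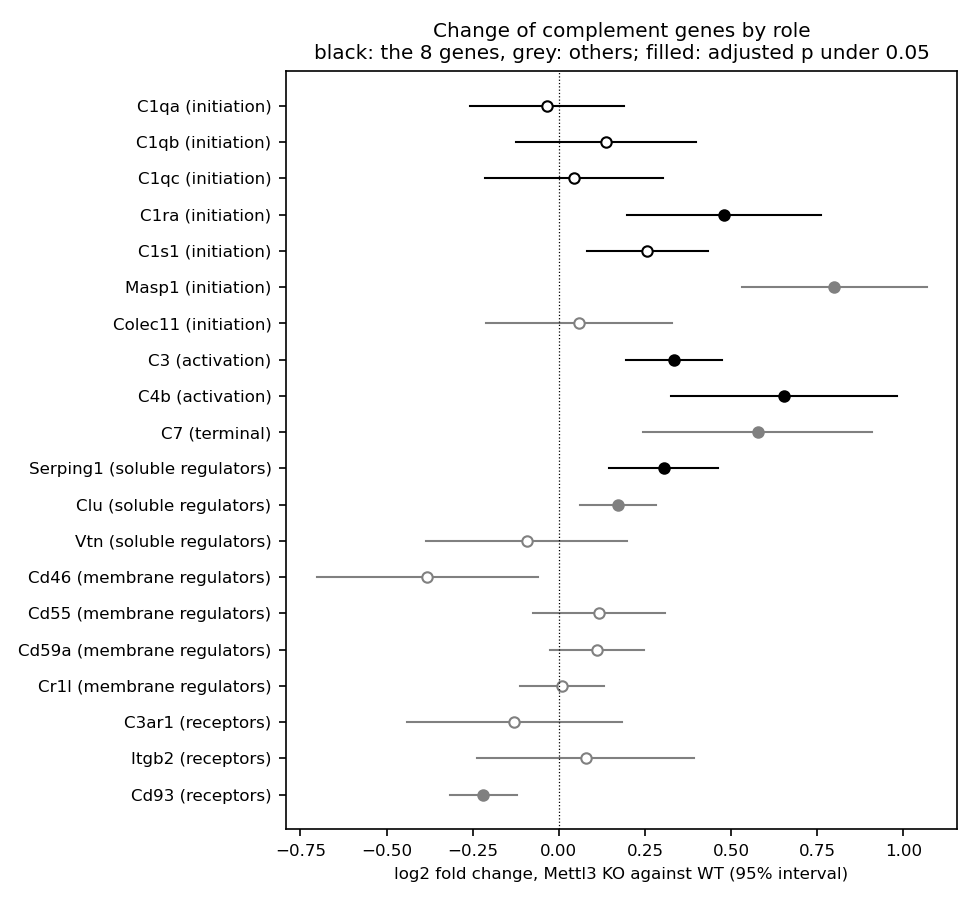
Log2 fold change between KO and WT hearts (horizontal axis) with its 95% interval for the 8 complement genes (black) and 12 further pathway genes (grey), ordered by role. Filled points passed at a limma adjusted p under 0.05. Masp1 at 0.80 and C4b at 0.65 lie farthest to the right, and Cd93 at -0.22 is the only decrease that passed.

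Markers of other heart cells that can make complement moved as well. Of 8 fibroblast markers 6 rose (Pdgfra, Dcn, Col1a1, Col1a2, Col3a1 and Lum, at 0.30 to 0.48 on the log2 scale) and Tcf21 and Ddr2 did not pass, with a list median of 0.36. The fibroblast sum was 3741 to 4195 in WT and 4603 to 5260 in KO libraries, without overlap. C3, C1ra and Serping1 lay within that range, C4b at 0.65 lay above all 8 fibroblast markers and C1s1 at 0.26 below the 6 that rose, and the part of these markers in the complement changes was not tested. Of 6 mesothelial markers, which mark the surface lining of the heart, 2 rose (Upk3b by 1.57 and Lrrn4 by 1.07) from low levels. The other 4 did not pass, and of these Msln, Upk1b and Krt19 had positive log2 fold changes. Wt1, the most abundant of the 6, went the other way at -0.21 (limma adjusted p = 0.483). Wt1 had 49 to 72 normalized read counts in WT and 43 to 68 in KO libraries. The sum of the mesothelial list was 75 to 120 in WT and 100 to 161 in KO libraries, and its part was not tested either. Of 6 hepatocyte markers only Ahsg and Ttr had a row, at 7 to 27 and at most 2 normalized read counts. Alb, Apoa1, Serpina1a and Fgb had none. Their sum was 7 to 15 in WT and 16 to 27 in KO libraries, without overlap. Neither passed (limma and limma voom each gave 1 of 2 an unadjusted p under 0.05), and the part of liver RNA was not tested.

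**Figure D4:**
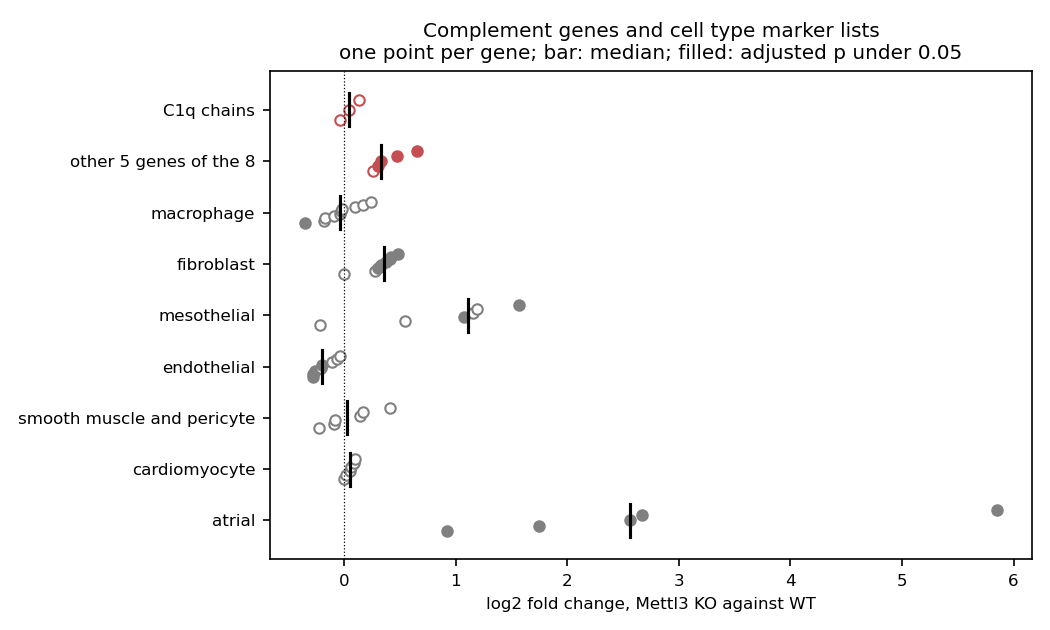
Log2 fold change between KO and WT hearts (horizontal axis) of each gene in the complement set and in marker lists, with the median of each list as a bar and filled points for a limma adjusted p under 0.05. The C1q chains lie between -0.03 and 0.14, and the other 5 complement genes between 0.26 and 0.65. List medians are -0.03 (macrophage), 0.36 (fibroblast), 1.11 (mesothelial), -0.20 (endothelial), 0.03 (smooth muscle and pericyte), 0.06 (cardiomyocyte) and 2.56 (atrial). The part of any cell type in the complement changes was not tested.

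Likeness of pattern was described by Pearson's r over the 8 libraries after centring each genotype at its own mean, among 9294 genes whose mean value reached 50 or more. The mean of the C1q chains was most like Map3k10 (r = 0.980) and Hopx (0.979). C3 was most like Lama5 (0.990), Tm6sf1 (0.988) and Plekha6 (0.988), and C4b was most like Wdfy2 (0.975), Psd3 (0.974) and Cnot10 (0.965). With 8 libraries and so many candidates such values are a description of these libraries only.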

How the data were processed

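RNA of mouse heart tissue had been sequenced as stranded 72-base single-end libraries. Per the labels and the published methods, reads were trimmed by the authors (Trimmomatic 0.39), aligned to mm39 (STAR 2.7.11a), cleared of duplicates (Picard 3.1.1) and multi-mapping reads, counted over exons by strand (featureCounts 2.0.4) and normalized with DESeq2 1.36.0. The deposited values are a score, normalized counts rounded to whole numbers. The factor between reads and values (0.927 to 1.11) was estimated by maximum likelihood from the spacing of low values. Libraries of a genotype differed by more than sampling noise (chi-square per degree of freedom 1.11 to 1.94). Whether they came from separate animals is not stated beyond the titles, so p-values measure the spread between these samples.

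Genes whose mean value reached 1 (20313, with 2732 left out) entered limma 3.58.1 (R 4.3.3) as log2(value + 1). The model held genotype alone, let the variance follow a trend over the mean, and gave two-sided p-values adjusted by Benjamini-Hochberg over all genes. This scale understates changes of low genes. The scripts were tested on simulated data. The genes, lists and tests were chosen with earlier results of these data known. Named genes were the 8 genes, Mettl3, called genes of the pathway list with the 8 others of highest mean, called macrophage, fibroblast and mesothelial markers, and the 3 most alike in pattern. Other pathway genes and markers named with a value fall outside this rule and were chosen after their values were seen. Some genes that met the rule are not reported here. Alternatives were other pseudocounts, filters, scalings and weightings, a replicate block and each library left out.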

Additional observations from a re-analysis of the deposited data

Results flagged for a closer look

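For 4 libraries of a genotype, Dixon's criterion singles out one whose distance to its neighbour exceeds 0.829 of the whole range. The search covered the 8 complement genes and 13 further pathway genes, 42 groups in all, where chance gives about 2.1 and 3 were singled out. None was among the 8 genes. WT replicate 2 had 78 normalized read counts of Masp1 against 58 to 61 in the other WT libraries (0.850). KO replicate 1 had 181 of Cd55 against 159 to 161 (0.909). WT replicate 4 had 35 of Itgb2 against 46 to 48 (0.846).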

How the results depend on the processing

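Limma without a mean-variance trend called 0 of the 8 genes (5 had an unadjusted p under 0.05, and the trend fit and limma voom each called 4), 1 gene of the pathway list against 9, and 321 of all genes against 1607. The log2 fold changes stayed the same there, with limma adjusted p of 0.171 for C3 (0.34), 0.155 for C4b (0.65), 0.0954 for C1ra (0.48) and 0.125 for Serping1 (0.30). The cause was not tested. Same-numbered libraries showed little shared deviation (correlations -0.04 to 0.09 over 12027 genes). For 2 of 4 WT libraries the most alike KO library had the same number. A pairing by number was thus not shown, and these values cannot exclude it. With the replicate block 3 of the 8 genes and 1346 genes in all passed, and C1ra (0.48, limma adjusted p = 0.0587) did not. Other scalings, pseudocounts, filters and limma voom changed no call among the 8 genes.

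With each library left out in turn, 2 to 4 of the 8 genes passed, 5 to 8 genes of the pathway list (5 without KO replicate 4) and 1019 to 1596 of all genes (1019 without KO replicate 3). The log2 fold change ranged from 0.28 to 0.40 for C3, 0.49 to 0.77 for C4b, 0.41 to 0.56 for C1ra, 0.19 to 0.30 for C1s1, 0.26 to 0.37 for Serping1, -0.089 to 0.045 for C1qa, 0.06 to 0.21 for C1qb and -0.014 to 0.16 for C1qc. C1qa changed sign without WT replicate 3 (0.0090) or KO replicate 3 (0.045), and C1qc without WT replicate 2 (-0.014) or 4 (-0.0058). At 33 to 98 reads per library, changes of C4b, C1ra and the C1q chains are measured least precisely.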
